A study of Mus musculus with 4 samples.

Results

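The comparison described here set spinal cord cells of mice homozygous for the P301S tau transgene at 33 weeks (P301S hom CD8 WT) against those of mice without the transgene at 30 weeks (P301S neg CD8 WT). It used 2 of the 4 single-cell RNA libraries of the series, 1 per group, and kept 10428 of the 20186 cells that passed the same filters in the whole series (5640 neg and 4788 at 33 weeks). All mice compared here were CD8 WT, that is, they kept their CD8 gene, and ages differed by 3 weeks, so genotype and age cannot be told apart. Another library, P301S hom CD8 WT at 30 weeks (4692 cells), was put in place of the 33-week library to see which large differences recurred at the age of the neg mice. Both comparisons share the neg library, so recurrence is not independent evidence. Each library pooled 2 perfused cords, which were dissociated enzymatically with heating, depleted of myelin and loaded on 10x Genomics 3′ v3.1 chips. The labels give neither the promoter that drives the transgene nor the strain. The features counted hold mouse Mapt and no human MAPT, so the transgene itself was not read. With 1 library per group there is no replicate check, no test was made, and every interval below is a 95% interval for counting error only.

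P301S is a mutation in the microtubule-binding region of human tau that causes inherited frontotemporal dementia, and mice that overexpress it develop tau filaments and nerve cell loss, with the spinal cord strongly affected. Microglia are the resident macrophages of the central nervous system. In health they carry a set of genes that includes the ADP receptor P2ry12 and the membrane protein Tmem119. Around amyloid, dying neurons and demyelinated areas they switch on a disease-associated set of genes for lipid transport, phagocytosis and lysosomal breakdown, among them Apoe, Cst7, Lpl and Gpnmb.

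The 2 libraries held 42823896 (neg) and 36331214 (33 weeks) unique molecular identifiers (UMIs), and the 30-week P301S hom library held 42401255. Cells were typed from marker genes, and all 15 microglial markers, 10 endothelial markers and 9 T cell markers were found in their named class in each of the 3 libraries. The neg and 33-week libraries each contained female cells (Xist, no Y-linked gene: 2043 and 1686 cells) and male cells (1568 and 1305), whereas the 30-week P301S hom library contained female cells and no male cells. With 2 mice per tube, female and male cells of a library therefore came from different mice, and values are given for each sex where they bear on a result. Neither kind of UMI was found in 1919 neg, 1767 33-week and 969 30-week P301S hom cells. Both kinds were found in 110 neg and 30 33-week cells. None of these cells enters a value by sex. The 2 libraries shared 5 cell barcodes. No cluster was named as neurons. Among neuronal genes, the splicing factor Rbfox3 had 17 UMIs over the 5640 neg cells and 13 over the 4788 cells at 33 weeks, and Stmn2 had 4708 and 2185.

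Macrophage-like cells carried the microglial markers, and 22 neg and 22 33-week cells of the class came from a cluster named by border macrophage markers. The class made up 23.6% of neg cells (1333 cells, interval 22.5 to 24.8) and 33.2% of cells at 33 weeks (1589 cells, interval 31.9 to 34.5). The share was 41.4% (40.0 to 42.8) in the 30-week P301S hom library. In cells called female it was 27.3% neg and 36.0% at 33 weeks, and in cells called male 23.4% and 46.8%. Shares by sex leave out cells without a sex call, and at 33 weeks both lie above the share over all cells. Marrow and blood types took 26.5% of neg cells and 30.5% at 33 weeks. Without them and without cells set aside for mixed markers, the macrophage-like share was 37.5% (35.9 to 39.1) neg and 52.2% (50.4 to 54.0) at 33 weeks. Endothelial-like cells went the other way, from 31.4% (30.2 to 32.7) to 21.4% (20.2 to 22.6), and their share was 21.8% in the 30-week P301S hom library. Shares of a library are linked, so a higher share of one type lowers the others. T-cell-like cells numbered 19 of 5640 (0.337%; 0.203 to 0.526) neg and 65 of 4788 (1.36%; 1.05 to 1.73) at 33 weeks, with 42 of 4692 (0.895%) in the 30-week P301S hom library.

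**Figure D1:**
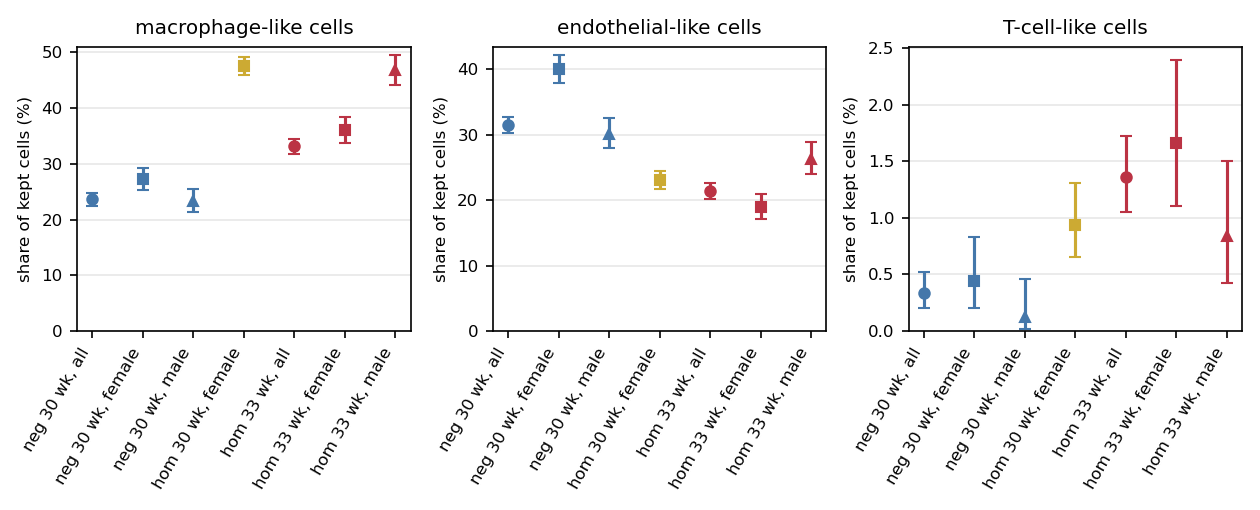
Share of kept cells (vertical axis, %) typed as macrophage-like, endothelial-like and T-cell-like in each library (circles: all cells, squares: female, triangles: male). Bars are 95% exact binomial intervals for counting error. Shares by sex leave out cells without a sex call. Macrophage-like shares of the P301S hom libraries (33.2% to 47.6%) all lie above those of the neg library (23.4% to 27.3%).

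Among 5713 genes measured well enough in macrophage-like cells (100 UMIs or more in both libraries together, and 20 or more in the higher one on the CPM scale, that is, as a share of all UMIs of the class in that library), 96 (1.68%) were at least 4-fold higher at 33 weeks and 19 (0.333%) at least 4-fold lower, with 5 CPM added to both values. When the 30-week P301S hom library took the place of the 33-week library, 92 of the 96 and 18 of the 19 again passed 4-fold in the same direction, and all 115 passed 1.5-fold. Of all 5713 genes, 1.77% passed 4-fold higher and 0.613% 4-fold lower with that library. At 1.5-fold the shares were 10% higher and 26.4% lower, so 1.5-fold is a weak bar for the lower genes. In both female and male cells of the 33-week library, 81 of the 96 and 14 of the 19 passed 4-fold, and again all passed 1.5-fold. These cells are part of the sums that made the calls, so this is not a separate check. The share of all 5713 genes that passed in both sexes was not computed. Different clusters held most of the class in each library: a cluster led by P2ry12 held 76.0% of the neg macrophage-like cells and 13.2% of those at 33 weeks, where a Gpnmb-led cluster held 31.2%. Within the P2ry12-led cluster, 1 of 5722 genes was at least 4-fold higher at 33 weeks and 2 lower, with P2ry12 at 1740 CPM neg and 1360 at 33 weeks. In the only other cluster with 100 cells or more in both libraries, 30 of 1735 genes were higher and 3 lower. Its cells were unlike in depth, with a median of 974.5 UMIs neg and 4382 at 33 weeks. P2ry12 was at 1449 and 425 CPM there, so this is not a comparison of like cells. Clusters were made from the same counts, and the part of cluster shares in the class values was not tested. Median UMIs per macrophage-like cell were 4985 neg, 10418 in the 30-week and 8179 in the 33-week P301S hom library.

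The 12 nameable genes that were higher by the most are given first. Apoe (chromosome 7, 19696109 to 19699188, GRCm38), the main lipid carrier protein of the brain, had 1287 CPM neg, 49564 at 30 weeks and 59623 at 33 weeks. The 33-week level was 46.3-fold the neg level (45.3 to 47.4) over the whole class. Of the neg Apoe UMIs, 2334 came from the 22 cells of the border macrophage cluster, where Apoe had 23226 CPM neg and 35782 at 33 weeks. Within the P2ry12-led cluster Apoe had 475 CPM neg, 3838 at 30 weeks and 8532 at 33 weeks. The neighbouring apolipoprotein genes followed: Apoc1 had 0.159, 106 and 141 CPM in the same order, Apoc4 had 0.319, 123 and 152 CPM, and Apoc2 had 1.75, 137 and 133 CPM. The neg library held 1 UMI of Apoc1 and 2 of Apoc4, so their ratios, 886 (159 to 35027) and 477 (132 to 3942), are poorly bounded above. Fabp5, an intracellular fatty acid carrier, had 21.3, 1129 and 1057 CPM and was 49.5-fold higher at 33 weeks (41.8 to 59.2).

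Gpnmb (chromosome 6, 49036546 to 49070929), a glycoprotein of lysosomes and the cell surface, went from 1.91 CPM neg to 1304 CPM at 30 weeks and 1562 CPM at 33 weeks, 817-fold above neg (468 to 1582). It had a UMI in 1 of 1333 neg macrophage-like cells and in 651 of 1589 at 33 weeks (41.0%). That 1 neg cell held all 12 neg UMIs. The interval treats UMIs as independent counts, so it understates the uncertainty of this ratio. Endothelial-like cells of the 33-week library, which should lack Gpnmb, held a UMI of it in 2.93% of cells, at a median of 3924 UMIs per cell against 8179. With every cell thinned to 1000 UMIs the shares at 33 weeks were 24.5% and 0.815%, and 0 of 1188 neg macrophage-like cells had a UMI. Spp1 (osteopontin), a secreted matrix protein, had 99.1, 6614 and 5569 CPM. The neg level of Spp1 differed by sex, with 187 CPM in female and 14.2 in male cells, against 4676 and 6426 CPM at 33 weeks. Few neg cells held most of it: 290 UMIs came from 2 cells of the Gpnmb-led cluster, of which 1 was called female and 0 male. Another 269 came from 53 cells of a cluster led by C1qa with Ccl3 among its leading genes. The 1013 neg cells of the P2ry12-led cluster held 22 Spp1 UMIs. Lgals3 (galectin-3), which binds damaged lysosomes, had 16.9, 889 and 920 CPM. Igf1, a growth factor, had 3.82, 398 and 341 CPM, and Cst7 (cystatin F), an inhibitor of lysosomal proteases, had 45.7, 1023 and 811 CPM. Mmp12, the macrophage elastase, had 2 UMIs in the neg library (0.319 CPM) and 296 CPM at 33 weeks, and Pianp had 1.43, 107 and 104 CPM. For each of these 12 genes, the lowest P301S hom value of either age and sex was above the highest neg value. The genes were picked by their ratio in the same counts, so this separation adds no separate evidence. The share of all genes that separate in this way was not computed.

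**Figure D2:**
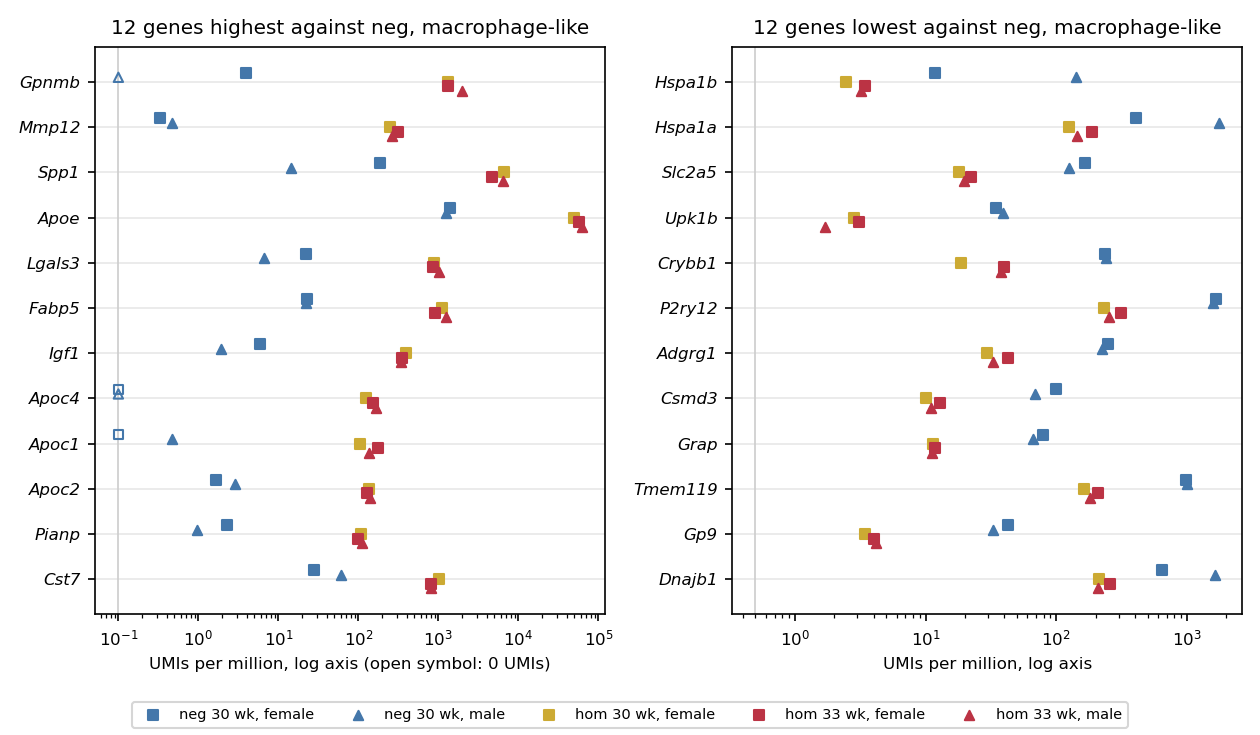
Level (horizontal axis, CPM, log axis) of the 12 nameable genes with the highest and the 12 with the lowest ratio of 33 weeks over neg in macrophage-like cells. Points are cells of 1 sex in 1 library, and open symbols have 0 UMIs. In every row the neg symbols and the P301S hom symbols do not overlap, but rows were picked by their ratio in the same counts. Hspa1b, Hspa1a and Dnajb1 also differ between neg female and neg male cells.

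Of the 12 nameable genes that were lower by the most, 3 were heat shock genes, described after the others. P2ry12 (chromosome 3, 59216272 to 59262871) had 1632 CPM neg, 235 at 30 weeks and 287 at 33 weeks, 5.68-fold lower at 33 weeks (5.48 to 5.89). Tmem119 had 982, 161 and 201 CPM. Slc2a5, a fructose transporter, had 147, 18.4 and 20.5 CPM, and Adgrg1 (GPR56), an adhesion receptor, had 240, 29.8 and 39.3 CPM. Crybb1, a crystallin found in microglia, had 247, 19.4 and 40.0 CPM. Upk1b, Gp9, Csmd3 and Grap were 17.5-, 8.71-, 6.85- and 6.54-fold lower at 33 weeks. For P2ry12 and Tmem119, female and male neg cells were close (1658 and 1586 CPM; 977 and 995 CPM).

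Hspa1a and Hspa1b encode the inducible heat shock protein Hsp70, and Dnajb1 encodes a partner chaperone. Hspa1a had 1047, 124 and 162 CPM and Hspa1b had 70.2, 2.49 and 3.44 CPM, in the order neg, 30 weeks and 33 weeks. Their neg levels were mainly those of the male cells: Hspa1a had 409 CPM in female and 1755 CPM in male neg cells, and Hspa1b had 11.8 and 141 CPM. Even so, female cells at 33 weeks were lower, at 188 and 3.46 CPM. Dnajb1 had 1030, 211 and 227 CPM, with 650 in female and 1632 in male neg cells. Hspa1a and Hspa1b are near-identical copies, so counts may be split between them. Their upstream sequences are shown because they differ at 3 of 250 bases and hold the same heat shock motif. Each line gives the 250 bases before the start of the gene on chromosome 17 in GRCm38.p6 (RefSeq), read 5′ to 3′ on the minus strand, for Hspa1a from chr17:34972157-34972406 and for Hspa1b from chr17:34959239-34959488. Capitals mark GAANNTTC, the core of a heat shock element, searched on both strands, which 6.69% of all upstream windows of this length hold.
Hspa1a: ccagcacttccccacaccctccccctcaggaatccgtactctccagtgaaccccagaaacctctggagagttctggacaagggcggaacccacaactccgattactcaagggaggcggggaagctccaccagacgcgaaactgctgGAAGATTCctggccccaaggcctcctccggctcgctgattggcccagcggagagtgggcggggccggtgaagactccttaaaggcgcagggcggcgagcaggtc
Hspa1b: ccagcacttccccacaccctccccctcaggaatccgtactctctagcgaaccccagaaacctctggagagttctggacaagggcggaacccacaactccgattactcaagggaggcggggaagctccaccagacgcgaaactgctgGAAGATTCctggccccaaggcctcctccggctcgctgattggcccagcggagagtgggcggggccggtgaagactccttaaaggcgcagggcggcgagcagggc

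Immediate early and heat shock genes, which enzymatic dissociation is known to induce, were lower as a list in macrophage-like cells: 15 of 19 measured members were at least 1.5-fold lower at 33 weeks (Jun 8570 CPM neg and 2400 CPM at 33 weeks, Egr1 3310 and 1261 CPM), and none was higher. The list's median log2 ratio was −1.15 at 33 weeks and −1.35 at 30 weeks, against −0.37 for all 11457 genes measured. The same list had a median of −0.01 in endothelial-like cells of the same 2 libraries, with 2 of 19 members lower. Its part in the other differences of macrophage-like cells was not tested.

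Of all 11457 genes measured in macrophage-like cells, 35.4% were at least 1.5-fold lower and 10.2% at least 1.5-fold higher at 33 weeks (36.4% lower at 30 weeks). Trimmed-mean (TMM) scaling shifted all log2 ratios up by 0.43, gave 126 genes at least 4-fold higher and 8 lower, and brought the median of all genes to 0.06. List medians are therefore to be read against −0.37. Of the disease-associated list, 23 of 25 members were higher and none lower (median 2.34; 2.40 at 30 weeks). Of the homeostatic list, 15 of 17 were lower and none higher (median −1.80; −1.94 at 30 weeks). Of the lipid and cholesterol handling list, 15 of 19 were higher and 2 lower (median 2.52). Its higher members beyond the apolipoproteins included Lpl (lipoprotein lipase, 37.3 CPM neg and 569 CPM at 33 weeks), Ch25h (4.78 and 62.5 CPM), the lipid droplet coat protein Plin2 (32.8 and 204 CPM) and the cholesterol exporter Abcg1 (14.2 and 86.9 CPM). Acsl1, which activates fatty acids, was among the lower members (45.4 and 16.6 CPM).

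Of 14 genes measured that make cholesterol, 11 were at least 1.5-fold lower at 33 weeks and none higher (median −0.90), and with TMM scaling 6 were lower (median −0.47). Insig1, a sensor of the pathway, had 63.2 CPM neg, 29.3 at 30 weeks and 21.1 at 33 weeks, and the synthase Hmgcs1 had 40.6, 26.4 and 19.2 CPM. At 30 weeks 4 of the 14 were lower, a smaller share than the 36.4% of all genes, with a median of −0.44 against −0.37 for all genes. With TMM scaling 1 was lower at 30 weeks. Lysosome and phagocytosis genes had 9 of 19 members higher and 2, the receptor Mertk and the transcription factor Tfeb, lower (median 0.55). With TMM scaling 14 were higher and none lower. The higher members included the proton pump subunit Atp6v0d2 (0.319 CPM neg from 2 UMIs, 79.3 at 30 weeks, 79.8 at 33 weeks) and the phagocytic receptor Axl (23.6, 287 and 224 CPM). Glycolysis genes had 8 of 14 higher and the hexokinases Hk1 and Hk2 lower (median 0.87; 12 higher and none lower with TMM scaling). The higher ones included Pgk1 (71.8 CPM neg and 205 CPM at 33 weeks) and Aldoa (265 and 753 CPM). Clock genes had 10 of 14 lower (median −0.81). With TMM scaling 5 of the 14 clock genes were lower and 1 higher. The time of day at which cords were taken is not given in the sources used here.

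The cytokine list of macrophage-like cells had a median of −0.35, which TMM scaling turned to 0.08. Single members differed in both directions: the interleukin-1 gene Il1b had 803 CPM neg, 2335 at 30 weeks and 1746 at 33 weeks, and its antagonist Il1rn had 8.12, 148 and 106 CPM. The monocyte attractant Ccl2 had 641, 273 and 295 CPM. Of 11 interferon-gamma response genes measured, 6 were lower and 1 (Gbp5) higher (median −0.88). With TMM scaling 4 were lower and 2 higher (median −0.45), against 15.2% and 21.6% of all genes. The TMM median at 30 weeks was −0.12. Socs1, a feedback inhibitor of cytokine signalling, had 76.1, 19.6 and 20.3 CPM. The interferon response (−0.31), MHC class I (−0.13), MHC class II (−0.38) and complement (−0.25) lists had medians above 0 once TMM factors were applied, and are left without a direction. Complement C3 alone had 1.27, 24.8 and 24.5 CPM, 19.3-fold higher at 33 weeks (9.67 to 45.0). Proliferation genes had 7 of 16 members higher at 33 weeks (median 0.24), with a median of −0.45 in female and 0.81 in male cells. Mki67, which marks cycling cells, had 3.65 CPM in female and 16.9 CPM in male cells at 33 weeks, against 4.92 and 0 in neg cells. Cycling cells were few: a cluster led by Top2a held 3 female and 2 male neg cells, and 1 female and 9 male cells at 33 weeks.

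Cells were also sorted by their own UMIs, after each was thinned to 1000 UMIs so that depth was equal. A UMI of P2ry12 or Tmem119 without one of Cst7 or Gpnmb was found in 85.9% of 1188 neg cells (83.8 to 87.9) and in 23.9% of 1542 cells at 33 weeks (21.8 to 26.1). Cst7 or Gpnmb without P2ry12 or Tmem119 was found in 0.505% and 37.6% (35.2 to 40.1). Cells with UMIs of both pairs made up 1.60% and 12.6%. The 4 genes include ones named above, so these shares show how the differences are spread over cells and add no separate evidence. At 33 weeks, 34.8% of female and 42.0% of male cells held only Cst7 or Gpnmb.

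**Figure D3:**
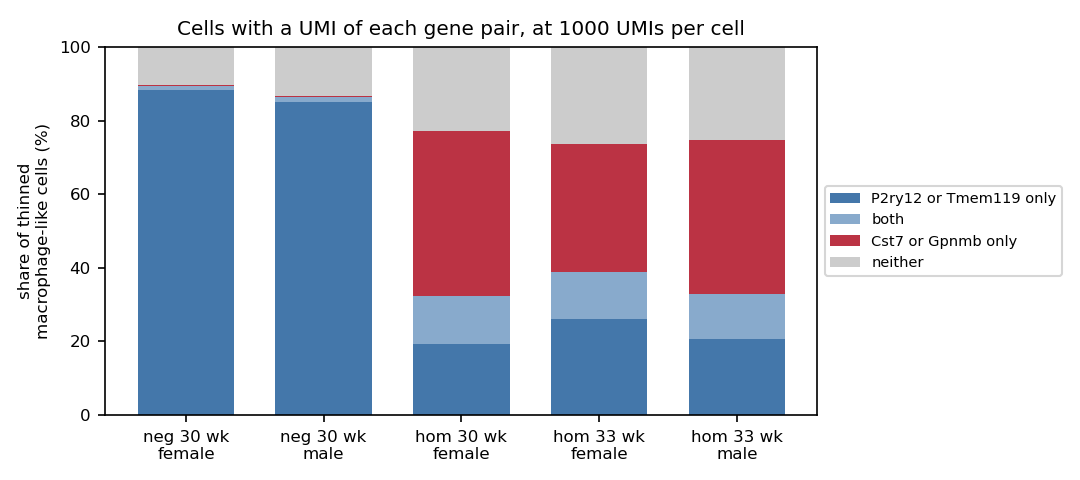
Share of macrophage-like cells (vertical axis, %), each thinned to 1000 UMIs, with a UMI of P2ry12 or Tmem119 only, of both gene pairs, of Cst7 or Gpnmb only, or of neither, by library and sex. Neg cells of both sexes hold mainly P2ry12 or Tmem119; cells holding only Cst7 or Gpnmb are 34.8% to 44.7% of the P301S hom columns.

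In endothelial-like cells, few genes passed 4-fold: of 6360 measured, 2 (0.0314%) were higher and 4 (0.0629%) lower. The 2 higher genes, Spp1 and Lyz2, recurred past 4-fold with the 30-week P301S hom library, but macrophage-like cells of the 33-week library held far more of both (Spp1 28.2 CPM against 5569; Lyz2 92.5 against 8231). The 4 lower genes, Igtp, H2-Q6, H2-Q7 and Gbp4, belong to the response to interferon-gamma and to the MHC class I region, which displays peptides to CD8 T cells. All 4 were past 1.5-fold and 1, Igtp, past 4-fold with the 30-week library. With that library 1.75% of all genes measured passed 1.5-fold lower, 0.11% passed 4-fold lower and 0.0943% 4-fold higher. It held no male cells, so this recurrence sets it against neg cells of both sexes. Igtp (Irgm3), an interferon-inducible GTPase, had 271 CPM neg, 57.9 at 30 weeks and 50.4 at 33 weeks, 5.37-fold lower (4.75 to 6.09). Gbp4, a guanylate-binding protein, had 210, 54.7 and 47.0 CPM. H2-Q6 had 239, 80.6 and 50.6 CPM and H2-Q7 had 455, 154 and 101 CPM. These 2 are closely related neighbours between which reads can be split.

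The neg levels of these genes differed by sex, and the male cells, from 1 mouse, were the high ones. Igtp had 513 CPM in male and 60.3 CPM in female neg cells, and 61.5 and 38.3 CPM at 33 weeks. It had a UMI in 81.0% (77.1 to 84.4) of 473 male and 29.5% (26.4 to 32.8) of 817 female neg endothelial-like cells, against 27.6% and 17.2% at 33 weeks. Female cells of the 30-week P301S hom library had 25.0% of cells with a UMI. Thinned to 1000 UMIs per cell, the shares were 34.7% in male and 5.19% in female neg cells, and 6.18% and 3.50% at 33 weeks. Gbp4 had 382 CPM in male and 64.6 CPM in female neg cells, against 47.0 CPM over all cells at 33 weeks. H2-Q6 had 398 and 106 CPM in male and female neg cells, and 48.9 and 57.9 CPM at 33 weeks. Female cells of the 30-week P301S hom library had 56.1 CPM of Igtp, 53.8 of Gbp4, 83.0 of H2-Q6 and 154 of H2-Q7. These levels lie nearer to those of neg female cells (60.3, 64.6, 106 and 200 CPM) than to those of neg male cells. In macrophage-like cells Igtp was similar in the male and female neg mouse (29.4 and 32.8 CPM). Counting female cells alone, 1 gene was at least 4-fold lower at 33 weeks in endothelial-like cells, and counting male cells alone, 21 genes were. Sex, mouse and genotype cannot be told apart within this difference.

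The fixed lists showed the same split. Of the 15 interferon-gamma response genes, 13 were at least 1.5-fold lower at 33 weeks (median −1.32 against −0.04 for all 11839 genes, of which 7.72% were lower), with a median of −0.29 in female and −2.17 in male cells. The 30-week library, which held no male cells, gave 13 lower (6.48% of all genes) and a median of −1.23 against neg cells of both sexes. Its median against neg female cells alone was not computed. Of 15 MHC class I genes, 14 were lower (median −1.22; −0.47 in female and −1.79 in male cells), with H2-K1, a classical class I chain, at 3038, 1616 and 1303 CPM. All 6 MHC class II genes measured were lower (median −1.31), but the median was 0.03 in female cells, −2.49 in male cells and −0.26 with the 30-week library. Irf1 and Socs1, also in the interferon-gamma list, had 290 and 82.1 CPM neg and 258 and 86.8 CPM at 33 weeks.

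Upstream sequences of Igtp and of its neighbour Irgm2, another interferon-inducible GTPase (84.4 CPM neg, 26.1 at 30 weeks, 22.4 at 33 weeks; 154 in male and 26.7 in female neg cells), are shown because both genes differed together and carry the same 2 motifs of interferon-induced promoters at the same spacing. The annotated genes overlap on the same strand (Igtp at 58199556 to 58207591 and Irgm2 at 58199618 to 58222782 of chromosome 11), so reads in the shared part are uncertain. The RefSeq start used for the Irgm2 sequence lies inside this interval, downstream of the GENCODE start given here. Each line gives the 250 bases before the start in GRCm38.p6 (RefSeq), 5′ to 3′ on the plus strand, for Igtp from chr11:58199306-58199555 and for Irgm2 from chr11:58214727-58214976. Capitals mark TTCNNNGAA and then GAAA, any 2 bases and GAAA, the form bound by interferon regulatory factors. Searched on both strands, 7.02% and 2.98% of all 32851 upstream windows hold them. A match is a description of letters and not of a bound site. No entry was found for Gbp4.
Igtp: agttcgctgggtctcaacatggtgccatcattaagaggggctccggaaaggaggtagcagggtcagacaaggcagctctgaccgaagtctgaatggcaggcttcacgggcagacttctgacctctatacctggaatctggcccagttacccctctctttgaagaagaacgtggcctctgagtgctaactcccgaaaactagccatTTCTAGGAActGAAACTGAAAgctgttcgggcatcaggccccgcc
Irgm2: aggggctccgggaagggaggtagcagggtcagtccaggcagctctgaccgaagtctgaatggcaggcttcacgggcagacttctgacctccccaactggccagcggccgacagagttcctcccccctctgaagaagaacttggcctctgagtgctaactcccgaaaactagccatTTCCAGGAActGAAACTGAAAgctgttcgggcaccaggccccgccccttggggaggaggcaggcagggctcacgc

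Genes of the blood-brain barrier did not differ past 1.5-fold in either direction (0 of 14 each way, median −0.06), nor did those of glycolysis (0 of 13). The endothelial activation list had 8 of 11 members lower (median −0.91; −0.91 in female and −0.16 in male cells, −0.30 with the 30-week library). Vcam1, an adhesion molecule for leukocytes, had 189, 115 and 75.2 CPM and was lower at 33 weeks in female (213 and 83.1 CPM) and male cells (169 and 83.3 CPM). P-selectin (Selp) had 66 UMIs in the neg and none in the 33-week library, and Ackr1, which marks venules, had 29.9, 8.44 and 5.83 CPM, mostly from neg female cells (55.3 CPM). The nameable genes that were higher by the most stayed under 4-fold with 5 CPM added. Fkbp5, a co-chaperone induced by glucocorticoids, had 5.77, 20.6 and 36.4 CPM, with 14.2 CPM in female and 45.6 CPM in male cells at 33 weeks against 4.00 and 8.84 CPM neg. Zbtb16, another gene of the glucocorticoid list, had 67.8, 109 and 172 CPM. Fam107a had 105, 192 and 226 CPM, and Angptl4, an inhibitor of lipoprotein lipase, had 40.3, 72.5 and 89.7 CPM. Of the 12 glucocorticoid-induced genes, 4 were higher, against 3.3% of all genes, and 1, Lcn2, lower (median 0.28).

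**Figure D4:**
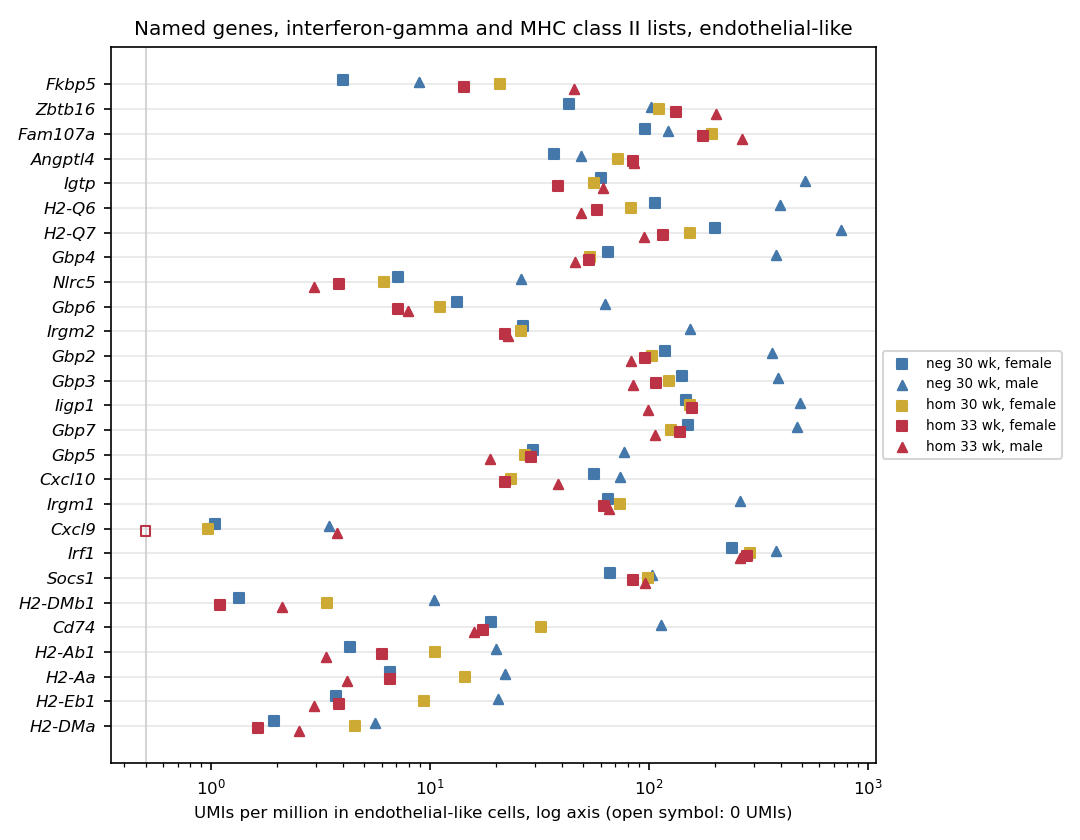
Level (horizontal axis, CPM, log axis) in endothelial-like cells of the 8 named genes and of the members of the interferon-gamma response and MHC class II lists, as cells of 1 sex in 1 library. For Igtp and Gbp4 the male neg symbol (513 and 382 CPM) stands apart to the right, and the female neg symbol (60.3 and 64.6) lies near the P301S hom symbols.

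Astrocyte-like cells were few, 41 neg, 36 at 30 weeks and 35 at 33 weeks, under the 100 cells set for naming genes, and were described after their values had been seen. With finer clustering (Leiden resolution 2) 21, 18 and 16 cells were named astrocyte-like. A cluster of 48, 26 and 55 cells with astrocyte and endothelial markers was then set aside as mixed. Values below were not recomputed on the finer clusters. The reactive-astrocyte list of astrocyte-like cells, genes switched on in gliosis, was higher in both P301S hom libraries: 11 of 12 measured members were at least 1.5-fold higher at 33 weeks (median 4.13 against 0.13 for all 2906 genes, of which 31.9% were higher), and the 30-week library gave a median of 4.10 (28.1% of all genes higher). The median was 4.49 in female and 3.90 in male cells, although the 33-week library had only 3 female and 12 male cells of this type that could be sexed. Complement C3 had 3 UMIs in 2 of 41 neg cells (18.1 CPM), 1980 CPM at 30 weeks, and 289 UMIs in 24 of 35 cells at 33 weeks (1677 CPM), 92.5-fold higher (31.3 to 451). Serpina3n, a secreted protease inhibitor, had 0 UMIs neg, 774 CPM at 30 weeks and 998 CPM in 21 of 35 cells at 33 weeks. Taking 3 UMIs as the most that a count of 0 allows over the neg class, it was at least 55.1-fold higher. C4b, a complement component, had 18.1, 580 and 714 CPM, and the intermediate filament Vim had 139, 3426 and 3703 CPM. Timp1 (0, 786 and 470 CPM) and the oncostatin receptor Osmr (0, 118 and 145 CPM) had no UMI in neg cells. Gfap, the other intermediate filament, had 338, 4717 and 5658 CPM, but helped to name the cluster.

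Other astrocyte markers did not share this size of difference: the glutamate transporter Slc1a2 had 2472, 2207 and 2426 CPM, Atp1b2 had 2460, 2413 and 2240 CPM, and the water channel Aqp4 had 949, 4137 and 6134 CPM. In the same 33-week library C3 was at 24.5 CPM in macrophage-like cells, 1.46 in endothelial-like and 316 in neutrophil-like cells. Serpina3n was at 0.351 CPM in macrophage-like and 1.09 CPM in endothelial-like cells, with 0 UMIs in neutrophil-like cells. Markers of other cell types in astrocyte-like cells also differed between libraries, in both directions. The 10 erythroid markers summed to 31788 CPM neg, 542 at 30 weeks and 17352 at 33 weeks, while the 8 astrocyte markers summed to 13731, 19125 and 23718 CPM. The 12 neutrophil markers summed to 18711 CPM neg, 2014 at 30 weeks and 128 at 33 weeks, and the 15 microglial markers to 5034, 8581 and 389 CPM. Ependymal markers summed to 66.5, 446 and 284 CPM, and smooth muscle markers to 60.4, 349 and 226 CPM. The median mitochondrial share of UMIs was 10.8%, 8.48% and 6.76%. The part of these in the result was not tested. Lcn2, the reactive gene that was lower (326, 50.5 and 98.7 CPM), is a neutrophil gene (12078 CPM in neutrophil-like cells at 33 weeks), and its 54 neg UMIs came from 3 cells. All 8 cholesterol synthesis genes measured in astrocyte-like cells were lower at 33 weeks, against 24.1% of all genes (median −2.03; −1.92 at 30 weeks), with Msmo1 at 483, 105 and 52.2 CPM and Insig1 at 187, 12.6 and 5.80 CPM. The dissociation-related list was lower too (15 of 17, median −2.06), and its part in these differences was not tested.

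**Figure D5:**
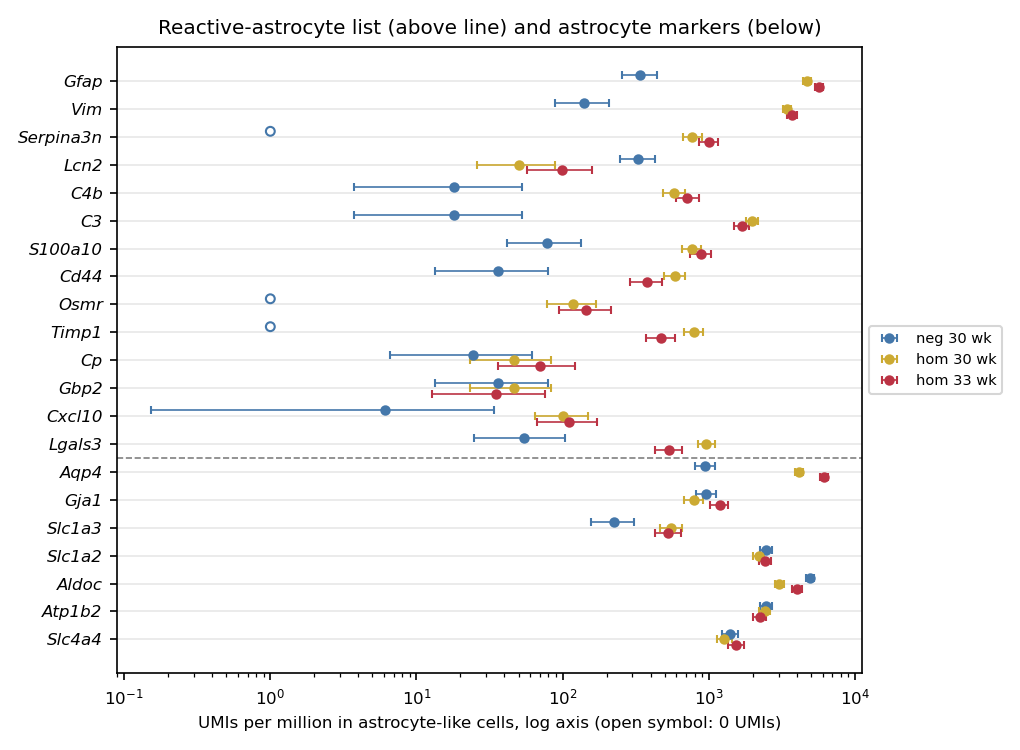
Level (horizontal axis, CPM, log axis) in astrocyte-like cells of reactive-astrocyte genes (above the dashed line) and astrocyte markers (below), summed over 41 neg cells, 36 cells at 30 weeks and 35 at 33 weeks. Bars are 95% exact Poisson intervals and open symbols have 0 UMIs. C3, Serpina3n, C4b and Vim of both P301S hom libraries lie to the right of the neg library, while Slc1a2 and Atp1b2 coincide.

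In T-cell-like cells, few in each library, 3 of 4 tissue residency genes measured were at least 1.5-fold higher at 33 weeks (median 1.38; 1.53 at 30 weeks), against 29.4% of all 1758 genes. Cxcr6, a chemokine receptor of resident T cells, had 131 CPM neg (10 UMIs), 556 at 30 weeks and 683 at 33 weeks, 5.21-fold higher (2.75 to 11.1), with a UMI in 6 of 19, 27 of 42 and 43 of 65 cells. Thinned to 1000 UMIs these shares were 10.5%, 29.3% and 39.1%, and no endothelial-like cell of 1023 held one at 33 weeks. Of 7 naive or central memory genes, 6 were at least 1.5-fold lower (median −1.05 against 0.18 for all 1758 genes, of which 9.67% were lower; −0.53 in female cells). Lef1, a transcription factor of naive T cells, had 354, 66.2 and 80.9 CPM, and Ccr7, a lymph node homing receptor, had 315, 19.9 and 152 CPM. Of the activation list, all 3 measured were higher: the costimulatory receptor Icos had 144, 503 and 698 CPM, the inhibitory receptor Ctla4 had 13.1 CPM (1 UMI), 113 and 152 CPM, and Cd44 had 0, 119 and 111 CPM. Cytotoxic genes had a median of 0.07, with granzyme K (Gzmk) at 144, 245 and 142 CPM. Gzmk UMIs were found in 2 of 11, 10 of 22 and 11 of 28 cells with CD8 and no CD4 UMIs. A sub-cluster led by Il17a, Krt83 and Ramp1 held 0 of 19 neg, 11 of 42 and 21 of 65 cells. The exact binomial limit for 0 of 19 is 17.6%. A sub-cluster led by Gzmk, Ccr7 and Cd8b1 held 15 of 19 neg cells (78.9%), 17 of 42 and 26 of 65 (40.0%). The part of these sub-cluster shares in the values above was not tested.

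Other classes gave few large differences. In B-like cells 13 of 2586 genes (0.503%) were at least 4-fold higher, of which 8 recurred, and 4 (0.155%) lower, of which 1 recurred. With the 30-week library 0.425% of all 2586 genes passed 4-fold higher and 0.116% 4-fold lower. After haemoglobin and immunoglobulin genes and those over 10-fold higher in another class, such as Apoe and Lyz2, were left out, 2 higher genes, Slpi and Gpr183, could be named, and 1 of them, Slpi, recurred past 4-fold. Of 2 lower genes that could be named, none recurred past 4-fold. Slpi, a protease inhibitor, had 174, 811 and 911 CPM, and the replication gene Mcm5 (92.9, 52.2 and 13.2 CPM) was lower. Of 16 proliferation genes, 12 were lower (median −0.92) and of 8 MHC class II genes 7 were higher (median 0.98) in these cells, against a median of −0.31 for all genes, of which 29.4% were lower and 6.5% higher. B-like cells numbered 328, 143 and 153 and came from clusters in different shares: one led by Igkc, Ighm and Vpreb3 held 249, 79 and 71 of them, and one led by Igkc, Cd79a and Ly6d, with H2-Aa and Cd74 among its leading genes, held 79, 64 and 82. The part of these cluster shares in the list values was not tested. In monocyte-like cells Acp5, the tartrate-resistant phosphatase of osteoclasts, had 13.9, 21.6 and 215 CPM. It passed 4-fold only at 33 weeks (1 of 3073 genes higher, 0.0325%), and 312 CPM came from female and 6.51 from male cells. In neutrophil-like cells the granule genes of immature cells Mpo (211, 278 and 84.4 CPM), Prtn3 (833, 1223 and 367 CPM) and Ctsg (51.8, 70.0 and 17.9 CPM) were lower at 33 weeks and not at 30 weeks. None of the 3389 nameable genes of this class passed 4-fold in either direction at 33 weeks. A cluster with Elane and Prtn3 among its leading genes held 78, 75 and 82 cells, and the part of clusters in these values was not tested.

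RNA typical of macrophage-like cells was also found in other classes: C1qa was at least 2-fold higher at 33 weeks in 6 of 7 classes, and Apoe, Lyz2, Tyrobp, Trem2, C1qb and C1qc in 5 of 7. Each was more than 10-fold higher in another class of the same libraries, so none was named as a gene of the lower classes. In endothelial-like cells the 15 microglial markers summed to 188 CPM neg, 705 at 30 weeks and 435 at 33 weeks, against 51948, 47464 and 46888 CPM in macrophage-like cells.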

How the data were processed

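Gene counts of UMIs per cell barcode were deposited by the authors for each library; Cell Ranger 6.0.1 made them, per the file headers, against mm10, per the submitters' processing notes. No other step is given in the sources used here. Members, gene lists, markers and tests were chosen with earlier results of these data known. Barcodes with at least 500 UMIs, 200 genes and at most 15% mitochondrial UMIs were kept, and Scrublet (in scanpy 1.11.5) marked 98 neg, 59 (30 weeks) and 42 (33 weeks) doublets (1.71%, 1.24% and 0.870%), which were removed. All 4 libraries were clustered together (2000 variable genes, 30 components, 15 neighbours, Leiden at resolution 1) and clusters named from fixed markers. Calls of sex used Xist and 4 Y-linked genes. UMIs were summed per class and library and scaled by the class total of the library (CPM). Intervals are exact Poisson, binomial (Clopper-Pearson) or conditional binomial. A gene was large past 4-fold with 5 CPM added; list members needed 20 UMIs. Named genes were the 12 highest and 12 lowest in macrophage-like cells, 4 and 4 in other classes of 100 cells or more, and up to 4 members per list, leaving out mitochondrial, ribosomal, haemoglobin, receptor segment, predicted and sex-linked genes and those over 10-fold higher in another class. Members beyond these, and all astrocyte-like results, were chosen after their values were seen. Classes were rebuilt from markers, so shares may differ from the authors' own. The ratios, intervals and calls of large differences were run on simulated Poisson counts without variation between cells, mice or libraries. The intervals rest on the same model, so this checks the computation only and not the spread between mice. Alternatives covered filters, doublets, resolution, added CPM, sex, equal weight per cell and edgeR 4.0.16 TMM factors. Positions are from GENCODE M21. Some genes are not reported here.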

Additional observations from a re-analysis of the deposited data

Results flagged for a closer look

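Ratios of 33 weeks over neg had opposite signs in female and male cells, 1 mouse each, for the genes and lists below, and the difference between the sexes was not tested in any of them. On the log2 scale with 5 CPM added, Slpi in B-like cells was 2.57 in female and −5.20 in male cells (0 of its UMIs were in male cells at 33 weeks), Hspa1b in ependymal-like cells was 3.26 and −2.86, and Apol11a in erythroid-like cells was 1.13 and −2.32. Hspa1b in ependymal-like cells went from 2.50 to 66.7 CPM in female and from 182 to 20.8 CPM in male cells. In macrophage-like cells the median of the proliferation list was −0.45 in female and 0.81 in male cells, and the Top2a-led cluster held 1 female and 9 male cells at 33 weeks. In monocyte-like cells the MHC class II list had −1.34 and 0.51, and the neutrophil inflammatory list 0.44 and −0.78. Erythroid-like cells held low levels of glial and endothelial lists, whose medians were −0.44 and 1.77 (disease-associated oligodendrocyte), −0.80 and 1.55 (reactive astrocyte) and −0.44 and 2.89 (blood-brain barrier).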

How the results depend on the processing

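With 1 library per group, counting intervals do not cover differences between mice, and leaving out a library was not possible. No paired analysis was possible because each group has 1 library. The ratio of the macrophage-like share, 1.40, was 1.32 in female and 2.0 in male cells, 1.53 with at least 1000 UMIs per cell, and, without marrow, blood and set-aside cells (added after seeing the data), 1.59 in female and 1.54 in male cells. Ratios by sex leave out cells without a sex call. The endothelial-like ratio, 0.680, was 0.473 in female and 0.874 in male cells, and 0.572 in female cells without marrow, blood and set-aside cells. The count of 19 lower macrophage-like genes was 32 in male cells, 8 with TMM, 6 with equal weight per cell, 47 with 1 CPM added and 437 at 2-fold; the 96 higher became 229 and the 110 recurring 626 at 2-fold. The 2 higher endothelial-like genes became 6 in female cells, 4 in male cells, 5 with equal weight, 6 with 1 CPM and 22 at 2-fold, and the 4 lower became 1 in female cells, 21 in male cells and 38 at 2-fold. The disease-associated median of 2.34 was 2.25 in female cells, 2.77 with TMM and 2.12 with equal weight, and the homeostatic median of −1.80 was −1.37 with TMM and −1.42 with equal weight. The endothelial-like MHC class II median turned to 0.0277 in female cells. The macrophage-like cytokine, interferon response, MHC class I, MHC class II and complement medians turned to 0.08, 0.12, 0.31, 0.05 and 0.19 with TMM, and the proliferation median to −0.45 in female cells. Slpi in B-like cells turned to −5.20 in male cells. The causes of these shifts were not tested. The T-cell-like ratio of 4.03 ranged from 2.97 to 6.61. T-cell-like cells held 76256 to 197655 UMIs per library and astrocyte-like cells 165469 to 237858, which limits their precision.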
